A study of Mus musculus with 9 samples.

Results

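Cytokine signalling through JAK kinases and STAT transcription factors, and the SOCS proteins that restrain it, was described in RAW264.7 cells by the mRNA levels of 9 genes. These were Socs1, Socs2, Socs3 and Cish, which encode suppressors of cytokine signalling, Stat3, Stat5a and Stat5b, which encode transcription factors, and Jak1 and Jak2, which encode kinases bound to cytokine receptors. The genes were chosen by name, and each had 1 row among the 23282 gene rows of every library. RAW264.7 is a macrophage line from BALB/c mice that can turn into osteoclast-like cells under RANKL, the cytokine that starts osteoclast differentiation. All libraries came from this line, labelled as passage 30, with 3 libraries in each of 3 groups. The first group is the negative control, called RANKL alone here. The second received heat-killed MJ2, a strain of Propionibacterium freudenreichii from milk, and the third received surface proteins extracted from MJ2. The labels give 10 µg/mL for the surface proteins, 10000000 cells/mL for the heat-killed bacteria, 50 ng/mL for RANKL and 4 days of treatment. By the study's methods the surface proteins were given together with RANKL, whereas the labels do not say for each heat-killed MJ2 library that RANKL was also given. No source used here says that the 3 libraries of a group came from separate cultures, so that p-values measure only the spread between these libraries.

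Each mRNA was read at its 3′ end, and values are given as adjusted reads, which is 2 raised to the deposited log2 value, minus 1. The adjusted reads of a library summed to between 5930926 and 6503682, and 1 read was worth between 0.924 and 1.11 adjusted reads. A value at or under 3 adjusted reads was treated as not distinguishable from 0, which covers counting error only. In 3 libraries (RANKL alone replicate 2, heat-killed MJ2 replicate 1 and surface proteins replicate 3) between 2454 and 3195 rows held values above 0 but under 0.5 adjusted reads, and the other 6 libraries held none such. The 9 genes together took 348 to 410 adjusted reads per 1000000 with RANKL alone, 540.0 to 569 with heat-killed MJ2 and 679 to 766 with surface proteins. Markers moved with the groups as well. The sum over 10 osteoclast markers lay between 20914 and 33120 adjusted reads with RANKL alone, between 13868 and 16029 with heat-killed MJ2 and between 5262 and 7864 with surface proteins. The sum over 9 macrophage markers lay between 18156 and 19606, between 24322 and 25355, and between 20530.3 and 22050, with Mertk listed at 0 in every library. This sum is weighted to abundant genes such as Csf1r, which was called lower with surface proteins than with RANKL alone (log2 fold change -1.47, by the rule given with the 9 genes), while 5 of the 8 macrophage markers tested were called higher, Adgre1 12.3-fold and Fcgr1 66.1-fold among them, at a median log2 fold change of 2.42, where 10.2% of all genes were called higher. Leaving out a library gave log2 fold changes of 6.161 to 7.728 for Fcgr1 and 3.185 to 4.159 for Adgre1 with surface proteins. With heat-killed MJ2, 4 of 8 macrophage markers were called higher and none lower, at a median of 2.0, where 3.37% of all genes were called higher. Of these 4 calls, Fcgr1 was lost in 10, Lyz2 in 8 and Cd14 in 1 of 12 fits that left out a library. Such 12 fits left out each of the 6 libraries compared, once with the filter repeated and once with the genes of the full test kept. Of 9 osteoclast markers tested, 7 were called lower with surface proteins, where 7.32% of all genes were. With heat-killed MJ2 3 were, where 0.897% of all genes were. None was called higher, at median log2 fold changes of -2.10 and -0.65. With heat-killed MJ2, Mmp9 (1.42-fold) and Itgb3 (1.3-fold) stood higher without a call. The 3 calls there were lost in 5 (Nfatc1), 10 (Acp5) and 12 (Atp6v0d2) of 12 fits that left out a library. Markers of fibroblasts, epithelium, endothelium, lymphocytes and osteoblasts stayed low, with 14 genes summing to at most 55.5 adjusted reads in any library. The part of these shifts in the results was not tested, and in bulk RNA fewer cells of a type cannot be told apart from less RNA per cell.

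When a cytokine binds its receptor, the JAKs on the receptor phosphorylate it and then the STATs, which pair up, enter the nucleus and switch on target genes. STAT3 carries signals from the interleukin-6 and interleukin-10 families and from G-CSF, and STAT5A and STAT5B carry those from GM-CSF, interleukin-3, growth hormone and related cytokines. Among the induced targets are the SOCS genes themselves, whose proteins bind JAKs or receptors and end the signal, so that their mRNA is widely used as a readout of recent cytokine signalling. In the osteoclast lineage, interferon and interleukin signals through this pathway restrain or promote differentiation, and SOCS proteins set how strongly they do so.

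The 9 genes did not move as a block. Socs3 and Socs1 rose in both treated groups, Cish rose with heat-killed MJ2 and stood lower with surface proteins than with heat-killed MJ2, and Jak2 rose with surface proteins. The test, in limma, took every gene that reached 10 adjusted reads in 3 or more of the 6 libraries of a comparison. A gene was called where it changed by 2-fold or more and its p, adjusted over all genes tested by the Benjamini-Hochberg method, was below 0.05. With surface proteins against RANKL alone, 3 of the 7 genes tested were called higher and none lower, where 10.2% of the 10874 genes tested were called higher and 7.32% lower. By adjusted p alone 4 of the 7 were higher, against 15.9% higher and 13.2% lower among all genes. With heat-killed MJ2 against RANKL alone, 3 of 8 were called higher by both rules, against 3.37% of 10814 genes called higher and 0.897% lower, or 4.04% and 1.84% by adjusted p alone. With surface proteins against heat-killed MJ2, 1 of 8 was called higher and 1 lower by both rules, against 5.08% of 10916 genes called higher and 4.97% lower, or 9.21% and 8.65% by adjusted p alone. Libraries of both groups did not overlap for 6 of 7, 4 of 8 and 5 of 8 genes, where this held for 48.4%, 30.2% and 42.3% of all genes. The median log2 fold changes of the genes tested were 0.96, 0.25 and 0.32, beside -0.01, -0.00 and 0.03 over all genes. Socs1 (in both comparisons with RANKL alone) and Cish passed the filter on low values only through the group in which they were high, so these counts and medians are not support for a change of the group of genes. Both comparisons with RANKL alone used the same 3 control libraries. An exact permutation test of 3 libraries against 3 cannot give a two-sided p below 0.1.

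**Figure D1:**
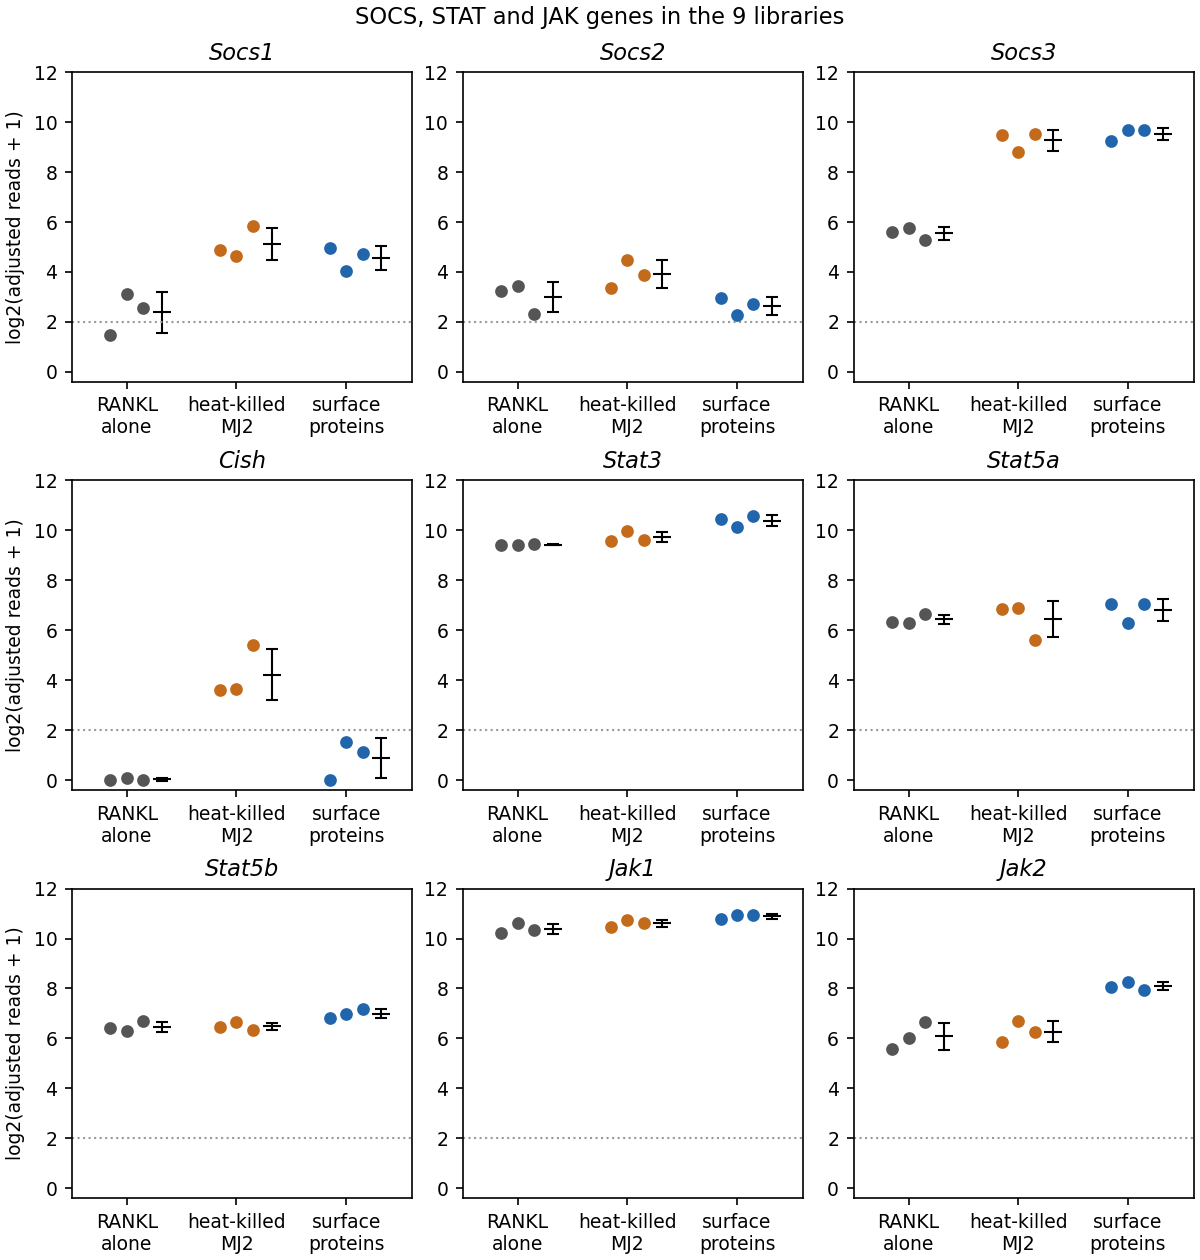
Level of each of the 9 genes in the 9 libraries, as log2(adjusted reads + 1) on the vertical axis, with 1 coloured point for each library, the mean ± SD of the group in black (n = 3) and a dotted line at 3 adjusted reads. Socs3 sat between 37.5 and 53.0 adjusted reads with RANKL alone and between 445 and 826 in all 6 treated libraries, and Cish exceeded 3 adjusted reads with heat-killed MJ2 only.

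**Figure D2:**
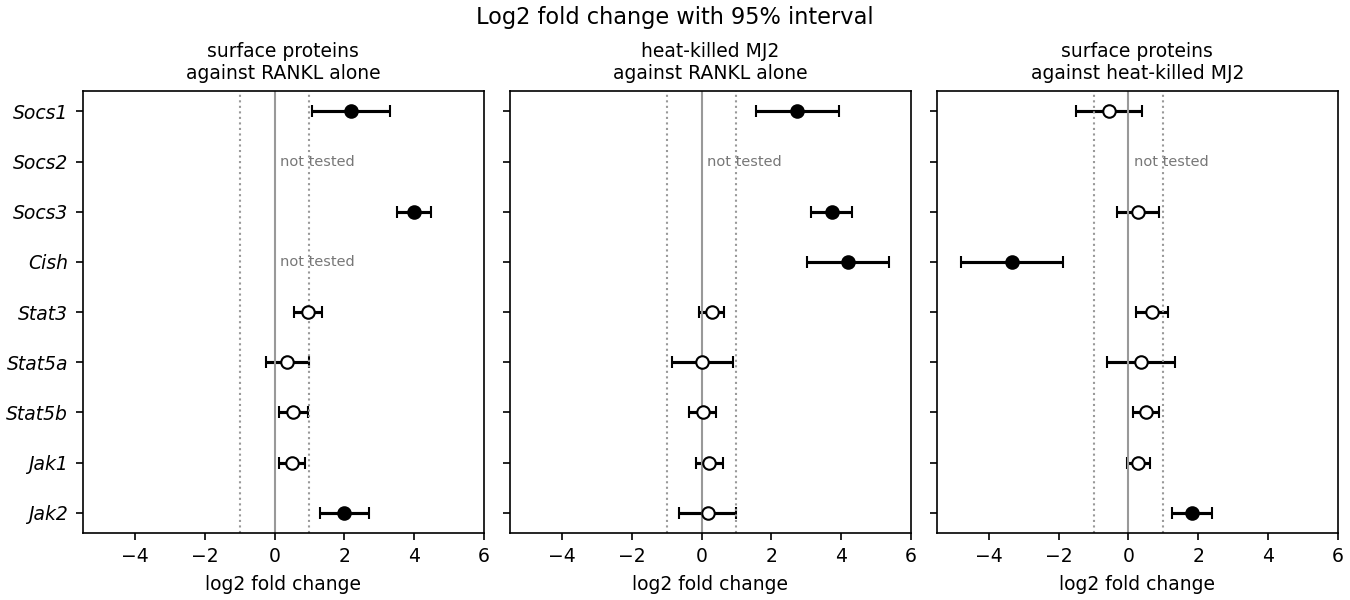
Log2 fold change of each gene in the 3 comparisons (first group minus second) with its 95% interval from limma, filled where the gene was called, with dotted lines at a fold change of 2 in either direction. Socs3 stood at 4.00 and 3.73 against RANKL alone and at 0.27 between the treated groups, while Jak2 stood at 2.0, 0.18 and 1.83 in the order of the panels.

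Socs3 encodes the suppressor that binds the gp130 receptor chain and its JAKs and limits STAT3 signalling. With RANKL alone the 3 libraries held 47.7, 53.0 and 37.5 adjusted reads. The heat-killed MJ2 libraries held 716, 445 and 733, and the surface protein libraries held 612, 826 and 816. Every treated library was thus above every control library, and the treated groups overlapped. The means rose 16.3-fold with surface proteins and 13.7-fold with heat-killed MJ2. On the log2 scale the change was 4.00 ± 0.20 (SE) with surface proteins (limma, adjusted p = 0.000203) and 3.73 ± 0.25 with heat-killed MJ2 (limma, adjusted p = 0.000991). The difference between the treatments was 0.27, with a 95% interval from -0.33 to 0.87 (limma, adjusted p = 0.469), so that a difference of up to 0.87 on the log2 scale was not distinguishable. Relative to Stat3 in the same library, the log2 value of Socs3 moved from -3.89 ± 0.27 (SD, n = 3) with RANKL alone to -0.45 ± 0.61 with heat-killed MJ2 and -0.85 ± 0.39 with surface proteins.

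Socs3 lies on the minus strand at chr11:117966079-117970047 (GRCm38, GENCODE M21). Its promoter is shown because STAT3 and STAT5 bind the motif TTCNNNGAA, a palindrome that reads alike on both strands. The RefSeq promoter of Socs3 (GRCm38.p6) held 1 such motif, from base -154 to base -146 relative to the RefSeq start, and 7.02% of 32851 RefSeq promoters held at least 1 in the 250 bases before the start. The stretch that lies outside annotated exons is chr11:117969452-117969616 on the minus strand, bases -250 to -86, with the motif in capitals.
Socs3 promoter: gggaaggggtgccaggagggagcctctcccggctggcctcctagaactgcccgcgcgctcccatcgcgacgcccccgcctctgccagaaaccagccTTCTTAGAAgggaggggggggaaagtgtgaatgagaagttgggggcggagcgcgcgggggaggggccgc
The match is a description of the letters, not a measurement of binding.

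Socs1 encodes the suppressor that blocks the JAKs of the interferon receptors and is itself induced by interferon. The RANKL alone libraries held 1.79, 7.65 and 4.93 adjusted reads, 1 of them under 3. With heat-killed MJ2 the values were 28.6, 24.2 and 57.0, and with surface proteins they were 30.4, 15.3 and 25.2. Both treated groups lay wholly above the control and overlapped each other. The means rose 4.94-fold with surface proteins (log2 fold change 2.18 ± 0.46 (SE), limma adjusted p = 0.0169) and 7.64-fold with heat-killed MJ2 (2.75 ± 0.50, limma adjusted p = 0.0327). Between the treatments the log2 difference was -0.56, with a 95% interval from -1.50 to 0.37 (limma, adjusted p = 0.342). Both calls were close to the threshold. With the replicate number as a block the adjusted p was 0.0518 for surface proteins and 0.0700 for heat-killed MJ2. Without surface proteins replicate 3, and with the same genes kept in the test, the adjusted p for surface proteins was 0.0524. The call for heat-killed MJ2 was lost without RANKL alone replicate 1 or 3 or without any of the 3 heat-killed MJ2 libraries, at adjusted p from 0.0545 to 0.0954 in limma, and with no filter on low values, at 0.0828.

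The gene lies on the minus strand at chr16:10782240-10785536. Its promoter is shown because interferon-activated STAT and IRF complexes bind GAAA repeats, searched here as GAAA, any 2 bases and GAAA again, on both strands. In the 250 bases before the start it held 2 overlapping copies, at bases -83 to -74 and -77 to -68, and no TTCNNNGAA. At least 1 such GAAA repeat was found in 2.98% of RefSeq promoters and at least 2 in 0.180%. The window is chr16:10785537-10785786 on the minus strand, with the overlapping copies in capitals.
Socs1 promoter: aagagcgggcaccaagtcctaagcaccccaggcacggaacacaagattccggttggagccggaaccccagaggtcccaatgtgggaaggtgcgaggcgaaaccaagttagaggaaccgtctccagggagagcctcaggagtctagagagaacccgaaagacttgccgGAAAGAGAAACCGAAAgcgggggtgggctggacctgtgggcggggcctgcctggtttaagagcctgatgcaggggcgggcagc
No binding was measured in these libraries.

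Cish encodes a suppressor of STAT5 signalling and is a classic target of STAT5. With RANKL alone it was listed at 0, 0.0614 and 0 adjusted reads. The heat-killed MJ2 libraries held 11.2, 11.6 and 41.4, and the surface protein libraries held 0, 1.88 and 1.19. Cish was therefore above 3 adjusted reads in all heat-killed MJ2 libraries and in no other library. Measured against the floor of 3 adjusted reads in each library, it was at least 7.14-fold higher with heat-killed MJ2 than with RANKL alone and at least 7.14-fold lower with surface proteins than with heat-killed MJ2. Without heat-killed MJ2 replicate 3 the bound was 3.81-fold in both. The fitted log2 differences were 4.20 ± 0.48 (SE) (limma, adjusted p = 0.00889) and -3.34 ± 0.61 (limma, adjusted p = 0.0196), which depend on the constant added before the logarithm. The second call was lost without heat-killed MJ2 replicate 1 (adjusted p = 0.0580 in limma), without surface proteins replicate 3 with the same genes kept in the test (0.0526), and with no filter on low values (0.0513). Without heat-killed MJ2 replicate 3, the highest library, the differences were 3.61 and -2.75 and both calls stood, at adjusted p of 0.00127 and 0.0470 in limma. Surface proteins and RANKL alone were both at or under the floor, and no fold change is given between them.

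The gene lies on the plus strand at chr9:107296026-107302784 and has several annotated starts. Its first exon of 1009 bases held 4 copies of TTCNNNGAA in pairs, beginning between 253 and 131 bases before the last annotated start, at base 107296912. At least 2 copies were found in 0.457% of the RefSeq windows of 300 bases from 250 before to 50 after a start, and the RefSeq window of Cish, which ends between the pairs, held 2. Both pairs are shown with the motifs in capitals, at chr9:107296654-107296683 and chr9:107296762-107296791 on the plus strand.
Cish first pair: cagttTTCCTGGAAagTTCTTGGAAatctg
Cish second pair: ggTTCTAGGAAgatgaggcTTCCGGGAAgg
Cish overlaps Gm17040 and Gm17041 on the other strand, which have no row among the values, and whether reads were counted by strand is not given in the sources used here. Of the 75-base runs in its transcripts, 7.93% also occur in those genes, read on the other strand, and 12.8% of those in the last 500 bases. None occurs in another gene.

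Socs2 encodes the suppressor of growth hormone signalling and is another STAT5 target. The control libraries held 8.42, 9.70 and 3.95 adjusted reads, those with heat-killed MJ2 9.21, 21.4 and 13.8, and those with surface proteins 6.84, 3.80 and 5.56. The heat-killed MJ2 group overlapped the control and lay wholly above the surface protein group. Socs2 reached 10 adjusted reads in 2 libraries only and so did not pass the filter in any comparison. Under another filter, a mean of at least 10 adjusted reads, which Socs2 passed narrowly at 10.1, it was called lower with surface proteins than with heat-killed MJ2 (log2 difference -1.26, limma adjusted p = 0.0469). With no filter on low values the same difference had a 95% interval from -2.16 to -0.35 and did not pass (limma, adjusted p = 0.0958). Against RANKL alone, with no filter, the difference was 0.92 with heat-killed MJ2, with an interval from -0.21 to 2.04, and -0.34 with surface proteins, with an interval from -1.28 to 0.60. The highest library was a heat-killed MJ2 library for both Cish (replicate 3) and Socs2 (replicate 2), and a shared pattern of these genes was not tested. Of the 75-base runs in Socs2 transcripts, 3.16% also occur in Adarb1, Gm9847 or Lix1, and 8.28% of those in the last 500 bases, nearest to where the assay reads.

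Stat3 encodes the transcription factor of the interleukin-6 and interleukin-10 families. Its control libraries were close together at 688, 676 and 699 adjusted reads. The values were 771, 991 and 779 with heat-killed MJ2 and 1408, 1118 and 1533 with surface proteins. The groups did not overlap and stood in the order RANKL alone, heat-killed MJ2, surface proteins. With surface proteins the mean was 1.97 times the control mean, and the log2 difference of 0.96 ± 0.16 (SE) passed on adjusted p but not on size (limma, adjusted p = 0.00845). Without surface proteins replicate 2 it was 1.09 and passed on both (limma, adjusted p = 0.0130). With heat-killed MJ2 the difference was 0.29, with a 95% interval from -0.07 to 0.65 (limma, adjusted p = 0.314). Surface proteins exceeded heat-killed MJ2 by 0.67, with an interval from 0.22 to 1.12, which did not pass after adjustment (limma, adjusted p = 0.0533).

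Stat5a and Stat5b encode closely related factors that share most target genes. Stat5a held 79.7, 77.7 and 99.8 adjusted reads with RANKL alone, 114, 117 and 48.0 with heat-killed MJ2, and 130.1, 77.7 and 133 with surface proteins. All 3 groups overlapped, and heat-killed MJ2 replicate 3 was the lowest library of the 9. Stat5b held 83.4, 76.6 and 102 with RANKL alone, 87.0, 98.7 and 80.5 with heat-killed MJ2, and 112, 126 and 143 with surface proteins. For Stat5b the surface protein libraries lay above all others, while the other groups overlapped. Neither gene was called in any comparison. For Stat5b the log2 difference between surface proteins and RANKL alone was 0.54, with a 95% interval from 0.11 to 0.96 (limma, adjusted p = 0.0637), and between surface proteins and heat-killed MJ2 it was 0.51, with an interval from 0.13 to 0.89 (limma, adjusted p = 0.0727). With heat-killed MJ2 against RANKL alone, the intervals ran from -0.37 to 0.43 for Stat5b and from -0.86 to 0.89 for Stat5a. For Stat5a with surface proteins the interval ran from -0.24 to 0.98.

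Stat5b, Stat5a and Stat3 form a cluster on chromosome 11, at chr11:100780731-100850724 (minus strand), chr11:100859351-100885169 (plus) and chr11:100885098-100939540 (minus). From end to end it spans 158810 bases, and Stat5a and Stat3 overlap by 72 bases at their 3′ ends, where this assay reads. Of the 75-base runs in the transcripts, 5.12% of those of Stat5a and 6.99% of those of Stat5b are identical in the other gene, and 2.67% and 10.6% of those in the last 500 bases, so a read that lies wholly within them does not tell the genes apart. Stat3 shares no such run with another gene. Its overlap of 72 bases with Stat5a is shorter than a 75-base run and could not appear in this search. Whether reads there were counted for both genes was not tested. None of the 3 promoters held TTCNNNGAA or the GAAA repeat in the 250 bases before the RefSeq starts.

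Jak2 encodes the kinase of the growth hormone, erythropoietin and GM-CSF receptors and, with Jak1, of the interferon-gamma receptor. It held 46.8, 63.7 and 99.8 adjusted reads with RANKL alone, 56.3, 102 and 75.5 with heat-killed MJ2, and 265, 304 and 246 with surface proteins. The surface protein libraries lay wholly above the others, which overlapped. The mean was 3.88-fold higher than with RANKL alone (log2 fold change 2.0 ± 0.29 (SE), limma adjusted p = 0.00488) and 3.49-fold higher than with heat-killed MJ2 (1.83 ± 0.24, limma adjusted p = 0.00995). With heat-killed MJ2 against RANKL alone the difference was 0.18, with a 95% interval from -0.64 to 0.99 (limma, adjusted p = 0.801).

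Jak1 encodes the kinase shared by many interleukin receptors and the interferon receptors. Its values were 1198, 1559 and 1284 adjusted reads with RANKL alone, 1409.5, 1690.4 and 1578 with heat-killed MJ2, and 1755, 1946 and 1980.0 with surface proteins. The surface protein libraries lay above all others, and the control and heat-killed MJ2 overlapped. Its log2 difference between surface proteins and RANKL alone was 0.50, with a 95% interval from 0.12 to 0.88, and it was not called (limma, adjusted p = 0.0582). The intervals were -0.17 to 0.60 for heat-killed MJ2 against RANKL alone and -0.05 to 0.62 between the treatments. The log2 value of Jak2 relative to Jak1 in the same library was -4.30 ± 0.55 (SD, n = 3) with RANKL alone, -4.34 ± 0.29 with heat-killed MJ2 and -2.80 ± 0.18 with surface proteins. Jak1 lies at chr4:101152367-101265282 (minus strand) and overlaps Raver2 on the plus strand, whose own row held between 27.4 and 98.9 adjusted reads. Jak2 lies at chr19:29251828-29313080 (plus strand). Neither promoter held the motifs searched.

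The genes whose pattern over the 9 libraries was most like each of the 9 genes were found among 11193 genes by the root mean square difference of the log2 values, after the mean of each gene had been subtracted. For Socs3 these were Procr, the endothelial protein C receptor, at 0.20, Tfpi, an inhibitor of the tissue factor pathway, at 0.32, and Calcrl, the calcitonin receptor-like receptor, at 0.36. Closest to Cish were Serpinb2, a plasminogen activator inhibitor, at 0.61, Clec4n, which encodes Dectin-2, at 0.65, and the chemokine gene Ccl2 at 0.83. Serpinb2 held at most 0.0740 adjusted reads in every library without heat-killed MJ2 and between 14.6 and 31.5 with it. For Jak2 they were Osbpl2 at 0.20, Dtx2 at 0.26 and Mcfd2 at 0.28. For Socs1 they were Rnf183, Glrx and Oasl1, the last an interferon-induced gene, at 0.41 to 0.55. The genes with smaller changes had closer neighbours, such as Dnajc18 at 0.10 for Stat3, Ormdl3 at 0.06 for Stat5b, Shoc2 at 0.07 for Jak1 and Txnrd3 at 0.15 for Stat5a. Socs2 was under the level needed for this comparison.

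**Figure D3:**
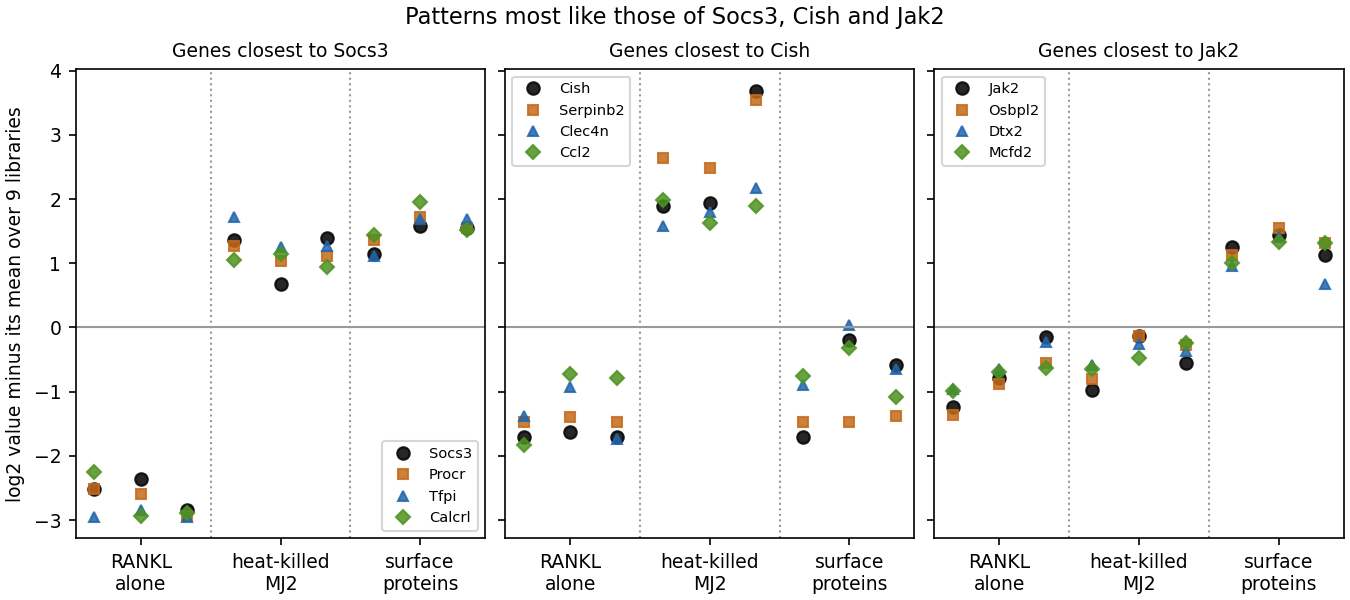
The log2 value of Socs3, Cish and Jak2 (black circles) and of the 3 genes closest to each, minus the mean of the gene over the 9 libraries, with the libraries ordered by group along the horizontal axis. The Socs3 panel shows the control libraries below 0 and both treated groups above 0.5, the Cish panel shows heat-killed MJ2 alone above 0.5, and the Jak2 panel shows surface proteins alone above 0.

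The other genes of the pathway were taken from lists based on textbook knowledge. Of the other JAKs and STATs, Stat4 was listed at 0 throughout. With surface proteins Stat2, the interferon-specific STAT, rose from 52.4, 63.7 and 75.1 adjusted reads to 226, 241 and 269.8 (log2 fold change 1.94 ± 0.18 (SE), limma adjusted p = 0.00127). Jak3, the kinase of the common gamma chain, rose from 36.5, 46.4 and 38.5 to 106, 118 and 93.2 (1.36 ± 0.17, limma adjusted p = 0.00299) and stood at 49.1, 42.5 and 38.2 with heat-killed MJ2. Stat2 with heat-killed MJ2 was at 122, 258 and 144 (1.38, limma adjusted p = 0.0578). It was called there in 3 of 22 fits, but in none that left out a library. Tyk2 was not called, with intervals from -0.26 to 0.86 with surface proteins and from -0.36 to 0.27 with heat-killed MJ2.

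Of the other SOCS genes, Socs4, Socs5, Socs6 and Socs7, none of the 4 was called in any comparison by limma. Their medians were 0.45 and 0.25 for surface proteins and heat-killed MJ2 against RANKL alone, and by adjusted p alone 1 was higher with surface proteins, where 15.9% of all genes were. Shares called higher over all genes were 10.2% and 3.37% against RANKL alone and 5.08% between the treatments. Of the other brakes (PIAS proteins, phosphatases, ubiquitin ligases and adaptors), 1 of 12 tested was called higher with surface proteins and 1 lower, beside 10.2% and 7.32% of all genes, and 1 of 13 was called higher with heat-killed MJ2, beside 3.37%. The gene that rose in both was Usp18, which removes ISG15 from proteins and blocks the type I interferon receptor. It went from 9.27, 22.8 and 11.8 adjusted reads to 279, 455 and 221 with heat-killed MJ2 (4.38 ± 0.40 (SE), limma adjusted p = 0.00356) and to 389, 546 and 509 with surface proteins (5.03 ± 0.33, limma adjusted p = 0.000460). The gene called lower was Ptpn1, a phosphatase that acts on JAKs (-1.08 with surface proteins), which came under a fold change of 2 without RANKL alone replicate 3 or surface proteins replicate 2, at -0.95 and -0.96. The phosphatase gene Ptpn6 was not called, with intervals from -0.32 to 0.39 with surface proteins and from -0.69 to -0.04 with heat-killed MJ2.

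Of 37 receptor genes that signal through JAKs, 22 were tested against RANKL alone. With surface proteins 4 were called higher and none lower, beside 10.2% and 7.32% of all genes. By adjusted p alone, in limma, 6 were higher and 2 lower, beside 15.9% and 13.2%, and the median was -0.10. Csf3r, 1 of the 4, passed the filter only through the treated libraries. With heat-killed MJ2 none was called in limma, beside 3.37% and 0.897% of all genes, 1 was higher by adjusted p alone, beside 4.04%, and the median was 0.07. Csf3r, the G-CSF receptor, held 24.6, 21.3 and 15.2 adjusted reads with surface proteins against 0 to 0.977 with RANKL alone and was at least 6.78-fold higher. Ifnar2, a chain of the type I interferon receptor, rose from 375, 448 and 405 to 1113, 1106 and 1239.8 (1.49 ± 0.14 (SE), limma adjusted p = 0.00138). Il7r rose from 0, 19.5 and 0 to 236, 356 and 204 (6.56 ± 1.18, limma adjusted p = 0.0101), where the 19.5 belongs to 1 of the 3 libraries with small values. This change ran from 5.84 to 8.02 when a library was left out. With heat-killed MJ2 the mean of Il7r was 23.4-fold that of the control, without a call. Il4ra rose from 37.4, 23.8 and 43.5 to 93.0, 97.0 and 82.2 (1.39 ± 0.24, limma adjusted p = 0.00909). Il6st, the gp130 chain that SOCS3 binds, was not called, with intervals from -0.80 to 0.71 with surface proteins and from -1.0 to 0.17 with heat-killed MJ2. Csf2rb, the shared chain of the GM-CSF and interleukin-3 receptors, had intervals from -0.71 to 0.11 and from -0.17 to 0.66, and Il10ra from 0.36 to 4.80 and from -1.46 to 3.70, none of them called.

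Of 33 cytokine genes that signal through JAKs, most were at or near 0. With surface proteins 6 were tested, 3 rose and 1 fell, beside 10.2% and 7.32% of all genes. With heat-killed MJ2 2 of 5 rose, beside 3.37%. Csf3 in both comparisons and Il23a with surface proteins passed the filter only through the treated libraries, so these shares are not set against each other as a result. Csf3, which encodes G-CSF, held at most 1.78 adjusted reads with RANKL alone, 343, 344 and 275 with heat-killed MJ2 and 81.2, 101 and 62.7 with surface proteins. It was at least 107-fold and at least 27.2-fold higher than the control, and lower with surface proteins than with heat-killed MJ2 (log2 difference -1.98 ± 0.21 (SE), limma adjusted p = 0.00666). Il23a, a subunit of interleukin-23, held 44.1, 33.7 and 54.3 with surface proteins, at least 14.7-fold above the control, and Ebi3, a subunit of interleukin-27 and interleukin-35, rose from 168, 197 and 165 to 579, 994 and 796 (2.12 ± 0.23, limma adjusted p = 0.00205). The cytokine gene called lower was Il15 (-1.06), which lost its call in 9 of 12 fits that left out a library. The second cytokine gene called higher with heat-killed MJ2 was Ebi3 (1.07), which lost its call in 4 of 12 such fits. Of genes outside the rule and chosen after their values were seen, Il6 held 0 to 0.0592 adjusted reads with RANKL alone, 1.04, 2.87 and 6.87 with heat-killed MJ2 and 4.88, 39.7 and 6.60 with surface proteins. Csf2, which encodes GM-CSF, stayed at or under 2.97 in every library, and Ifnb1 was listed at 0 in all 9.

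Known targets of STAT3 and STAT5 were counted without Socs3, Cish and Socs2. The lists do not separate induced from repressed targets, so a rise in a list is not a reading of STAT activity. Of 12 STAT3 targets tested, 7 rose with surface proteins (median 1.36) and 4 with heat-killed MJ2 (median 0.73), beside 10.2% and 3.37% of all genes, and none fell. Of these calls, Saa3 with surface proteins (3.66) was lost in 8 of 12 fits that left out a library and Nfil3 with heat-killed MJ2 (1.39) in 10 of 12, and Lcn2 passed the filter only through the treated libraries. Among them were Nfil3, a repressor induced by interleukin-10, which rose from 22.4, 45.4 and 33.6 adjusted reads to 186, 207 and 201 with surface proteins (2.57 ± 0.26 (SE), limma adjusted p = 0.00173), and Il1rn, the interleukin-1 receptor antagonist, which rose from 334, 309 and 263 to 2948, 2733 and 2498 with heat-killed MJ2 (3.17 ± 0.15, limma adjusted p = 0.000333). Il1rn stood at 846, 632 and 511 with surface proteins, lower than with heat-killed MJ2 (-2.07 ± 0.21, limma adjusted p = 0.00666). Lcn2, the siderophore-binding protein lipocalin-2, was at least 53.6-fold higher than the control with heat-killed MJ2 and at least 838-fold higher with surface proteins. Without heat-killed MJ2 replicate 2 the first bound was 33.9-fold. Of 6 STAT5 targets tested, 5 rose with surface proteins (median 1.52) and 2 with heat-killed MJ2 (median 1.46), beside 10.2% and 3.37% of all genes. Ccnd2, a cyclin that drives cells into division, rose the most with surface proteins, from 9.29, 0.0913 and 0 to 52.9, 67.3 and 56.8, and passed the filter only through the treated libraries. Igf1, which encodes a growth factor, was called higher in both (2.83 and 4.24), and the calls were lost in 7 and 8 of 12 fits that left out a library. Bcl6, a transcriptional repressor, rose from 106, 128 and 125.5 to 307, 399 and 426 with surface proteins (1.64 ± 0.18, limma adjusted p = 0.00219) and stood at 100.3, 135 and 134 with heat-killed MJ2. The medians over all genes tested were -0.01 and -0.00. Lcn2 and Ccnd2 entered the test only through the treated libraries. The counts and medians of the STAT3 and STAT5 lists are therefore not support for a change of these lists. The 2 lists of STAT3 and STAT5 targets share Pim1, which rose to between 281 and 353 adjusted reads in the 6 treated libraries from 129 to 146 in the control. Its call with heat-killed MJ2 was lost without heat-killed MJ2 replicate 1 (1.15, limma adjusted p = 0.0560).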

How the data were processed

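Total RNA of 9 RAW264.7 libraries was read by 3′ mRNA sequencing (75-base single reads). By the study's methods and the labels, the authors aligned reads with Bowtie2 to mm10, counted them over genes with bedtools and applied quantile normalization between samples, and the deposited values are, from their form, log2 values of reads plus 1. Whether they carry that normalization is not stated with the files, and library totals differ. No versions are given in the sources used here, nor whether strand was used in counting. Here each value was turned into adjusted reads (2 raised to the value, minus 1), and in every library 100% of values from 0.5 to under 3.5 lay within 0.25 of a whole number of reads. Totals were 5930926 to 6503682 adjusted reads. No library was identical to another, and 35 symbols had more than 1 row.

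The deposited log2 values were tested with limma 3.58.1 in R 4.3.3 on the 6 libraries of each comparison, with genes at 10 or more adjusted reads in at least 3 of 6 libraries, and Benjamini-Hochberg adjustment over all of them. On simulated data with 200 changed genes, the step called 200, 197 and 197 of them, and 3 of 10288, 2 of 10307 and 0 of 10475 unchanged genes, in the order RANKL alone with surface proteins, RANKL alone with heat-killed MJ2, and both treatments. The planted changes all exceeded 2-fold, lay in genes well above the filter level and used the same dispersion for every gene. Recovery of changes near 2-fold or at low counts was therefore not examined. Alternatives were other scalings, constants before the log, filters, fits over all 9 libraries, a trended prior, a replicate block, other call rules and leaving out each library. A repeat of the last that kept the genes of the full test was added after the data were seen. The 9 genes and all lists were chosen with earlier results of these data known. Genes named from a list were taken from its 4 called genes with the largest change in a comparison, or were direct partners of the 9 genes. Another gene of the pathway and a list tied to it are not reported here. Promoters came from RefSeq (GRCm38.p6, 8 of 9 genes matched), and motifs, the positions of genes and the shared 75-base runs were read with Python 3.11.15 from GENCODE M21.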

Additional observations from a re-analysis of the deposited data

How the results depend on the processing

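Socs3 kept its call in both comparisons with RANKL alone, and Jak2 in both comparisons with surface proteins, under all alternatives run. For Cish with heat-killed MJ2 against RANKL alone the call stood wherever it was tested, with log2 differences from 3.30 to 7.24 that depended on the constant added before the log. Without 1 treated library, Socs1 and Cish fall out of the test by its construction, and their values then come from the repeat that kept the genes. Under other scalings the median over all genes lay between -0.07 and 0.03 on the log2 scale.

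Among small differences that changed sign, Ptpn6 with surface proteins against RANKL alone came to -0.004296 with quantile normalization and -0.01594 with equal totals, and to between -0.04783 and 0.1052 when libraries were left out, while Il6st lay between -0.2247 and 0.2123. With heat-killed MJ2 against RANKL alone and quantile normalization, Stat5a came to -0.03589, Stat5b to -0.03498 and Jak3 to -0.01983. When libraries were left out in that comparison, Stat5a lay between -0.2013 and 0.4327, Jak2 between -0.07667 and 0.4623, Stat5b between -0.0595 and 0.1435 and Tyk2 between -0.08767 and 0.01083. Stat5a between surface proteins and heat-killed MJ2 lay between -0.063 and 0.6023. None of these was called, and the cause was not tested.

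Of all genes, 1902 were called with surface proteins against RANKL alone, and 3163 with no limit on the fold change. With heat-killed MJ2 against RANKL alone 461 were called, 267 with no filter on low values, 799 at unadjusted p and 81 to 347 without 1 library, when 1 to 3 of the 9 genes were called. Between the treatments 1098 were called, 1949 with no limit on the fold change and 342 to 1176 without 1 library, when 1 or 2 of the 9 genes were called, 1 with no filter, and 3, with Socs2, under the filter on the mean. Replicate numbers are shared by the groups, but same-numbered libraries deviated together only weakly (r from 0.018 to 0.106 over 11193 genes), and every library correlated best with its own number, a hint from the data and not the design. With the replicate block 1813, 289 and 980 genes were called in the 3 comparisons, and of the 9 genes only Socs1 lost its calls (adjusted p = 0.0518 and 0.0700 in limma). Low counts limit Socs1, Socs2 and Cish, for which 1 read is a large part of the value.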
